A study of Saccharomyces cerevisiae with 11 samples.

Results

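Wild-type budding yeast that had grown continuously in glucosamine was compared with wild-type yeast that had met the same sugar for 2 h. The comparison used 6 of the 11 arrays of the series, chosen by their titles. There were 3 arrays titled for growth in glucosamine that the titles mark SS, called continuous here, and 3 titled for a 2 h treatment. All cells were BY4741, a haploid laboratory strain of Saccharomyces cerevisiae of mating type a, in YPD, a rich medium with glucose. For the continuous group, cells that had grown overnight with 15 mM glucosamine were diluted 50-fold into YPD with glucosamine and harvested at an OD600 (optical density) of 1.6 to 1.8. For the 2 h group, the overnight culture had no glucosamine. It was diluted 50-fold, shaken for 2 or 3 h, given 15 mM glucosamine and harvested 2 h later at the same density. A further 3 arrays of untreated BY4741, diluted and harvested the same way, were used to estimate the spread between arrays and to show on which side of untreated cells a value lay. The labels speak of numbered replicates and do not say whether these were separate cultures, so the p-values measure a spread between arrays that may be technical.

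Glucosamine is an amino sugar. Once phosphorylated inside the cell it joins the hexosamine pathway, which makes UDP-N-acetylglucosamine, the building block of chitin and a donor for protein glycosylation. Chitin, glucans and mannoproteins make up the yeast cell wall, and the cell integrity pathway, a kinase cascade that ends in Slt2, answers damage to it. Yeast on abundant glucose ferments and holds down the genes of respiration. Cells short of oxygen or heme switch on a set of hypoxic genes, several of which replace an oxygen-induced partner.

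Each array gave 1 signal for each of 9335 probe sets of the yeast genome. The labels' protocols state that signals were normalised with GeneChip Analysis Suite, and the trimmed mean was 500.4 to 500.5 on the 9 wild-type arrays, so a difference in total RNA per cell, or in the number of cells that contributed, cannot be seen. Array medians were 123.4 to 142.3, and 76.7% to 80.4% of probe sets exceeded 25.5, the 95th percentile of 19 control probe sets that have no target in the sample. The signal of the 3′ end over the 5′ end of SPT15, a control for RNA quality, was 3.22 to 3.86 on the 2 h arrays and 2.46 to 2.89 on the continuous arrays, without overlap. The same ratio for ACT1 overlapped, at 1.33 to 1.54 and 1.29 to 1.37. The part of this difference in the results was not tested.

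The label of the strain was checked against marker genes. All 6 genes of mating type a cells were above the control percentile on every wild-type array, and their summed signal was 10635 to 14273 in 2 h and 16062 to 17310 in continuous glucosamine. All 4 genes of mating type alpha cells were above it too, with a summed signal of 304.2 to 322 in 2 h and 324 to 358 in continuous glucosamine. BY4741 by its textbook genotype lacks URA3, LEU2 and MET17 and carries a defective HIS3. URA3 lay under the control percentile on every wild-type array. LEU2 read 79.7 to 99.4 in 2 h and 44 to 53.3 in continuous glucosamine. MET17, the enzyme that makes homocysteine from sulfide, read 985.3, 265.3 and 684.2 in 2 h and 223, 123.1 and 108.5 in continuous glucosamine, above the control percentile on every array. The signals of MET17 therefore go against the strain's usual genotype. Those of LEU2 were within the range of the single alpha cell genes, 38.9 to 116.1 in 2 h and 30.9 to 181.5 in continuous glucosamine. Cells of mating type a should not express those genes, so such weak signals cannot show whether LEU2 was present.

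The genes that stood out between the groups were those of aromatic amino acid breakdown, the wall mannoprotein gene HPF1, the hypoxic genes AAC3 and ANB1, and the respiratory genes. Signals under 7.7 were set to that floor, and 8616 probe sets that exceeded it on 3 or more wild-type arrays were tested on the log2 scale with limma, which estimated the spread from all 9 arrays. After Benjamini-Hochberg adjustment, 5 of the 8616 (0.0580%) differed, 1 higher (0.0116%) and 4 lower (0.0464%) in continuous glucosamine. Of these 5, 4 belong to the single genes ARO10, ARO9, HPF1 and AAC3. The fifth, which matches 2 genes and is not named, read 5535, 4475 and 4723 in 2 h and 1894, 1555 and 1982 in continuous glucosamine (log2 -1.44, SE 0.12, adjusted p = 0.00283). Its identifier is next to that of the HPF1 probe set, and like HPF1 it was highest in untreated cells, at 6991 to 7185. Whether both bind the same transcript was not tested, so the 5 calls may not be 5 separate differences. The smallest adjusted p that missed the threshold was 0.0916.

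Beyond these calls the arrays differed broadly in small steps. An unadjusted limma p under 0.05 was found for 1207 probe sets (14.0%), where 430.8 are expected by chance. The excess was not tested, since probe sets are not independent of each other. The count ran from 718 without 2 h array 1 to 1359 without continuous array 3. With 1 probe set per gene, 5568 genes were tested, and 4 were called (0.0718%), 1 higher (0.0180%) and 3 lower (0.0539%). All 3 continuous arrays lay above all 3 of the 2 h arrays for 691 genes (12.4%) and below them for 406 (7.29%). At least a 2-fold difference without overlap was seen for 32 genes higher (0.575%) and 28 lower (0.503%). The log2 difference was above 0 for 59.2% of the genes, with a median of 0.07 and quartiles of -0.13 and 0.29. That lean depends on the scaling of the arrays: the median over all tested probe sets was 0.05 as deposited and -0.06 when each array was scaled to its median. A difference of this size therefore has no settled direction.

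**Figure D1:**
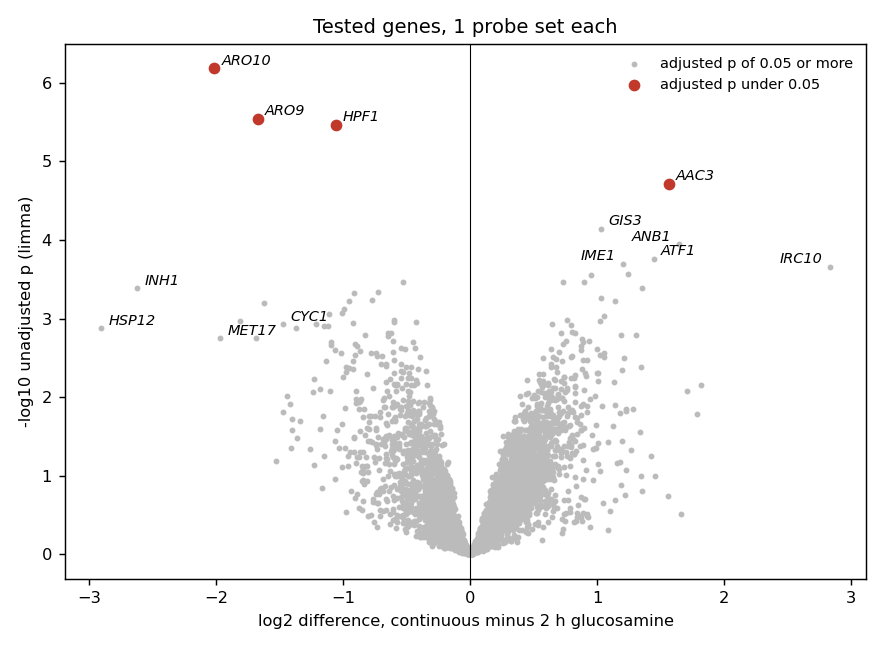
Log2 difference between continuous and 2 h glucosamine (x axis, continuous minus 2 h) against -log10 of the unadjusted limma p (y axis) for the 5568 tested genes. The 4 called genes are red, with ARO10, ARO9 and HPF1 to the left and AAC3 to the right, and other named genes of the text are labelled.

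The genes with the smallest p among those named were ARO10 and ARO9 of the Ehrlich pathway, by which yeast turns amino acids into fusel alcohols and acids. ARO10, the decarboxylase of aromatic and other keto acids, read 634.3, 450.8 and 486.8 in 2 h and 108.8, 137.4 and 140.6 in continuous glucosamine. The lowest 2 h array was more than 3 times as bright as the highest continuous array. The gene was 4.05-fold lower in continuous glucosamine, 129 ± 17.5 against 524 ± 97.2 (SD, n = 3; log2 -2.02, SE 0.18, limma adjusted p = 0.00283). Untreated cells read 416.2, 423.5 and 359.3, between the groups and nearer to 2 h.

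ARO9, the aromatic aminotransferase that feeds Aro10, read 1586, 1382.7 and 1407.8 in 2 h and 357.6, 547.9 and 484.4 in continuous glucosamine, again without overlap. It was 3.19-fold lower (log2 -1.67, SE 0.18, limma adjusted p = 0.00747). Its untreated arrays read 906, 1097.4 and 837.9, so 2 h arrays lay above and continuous arrays below all untreated arrays. Without 2 h array 1 the adjusted p of ARO9 was 0.0632, while ARO10 still passed (0.0149). Neither passed when the 6 glucosamine arrays were fitted with array numbers as a block (limma adjusted p = 0.542 each).

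Both genes are known targets of Aro80, an activator that responds to aromatic amino acids. ARO80 itself read 19.8, 24.7 and 25 in 2 h and 23.3, 38 and 31.2 in continuous glucosamine, near the control percentile and with overlap (log2 0.39, adjusted p = 0.543). ESBP6, a transporter-like gene that is also an Aro80 target, read 839.5, 757.9 and 543.2 in 2 h and 291.7, 387.1 and 460.4 in continuous glucosamine. These did not overlap, and the difference did not pass (log2 -0.91, SE 0.23, adjusted p = 0.197).

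The second aromatic aminotransferase, ARO8, was lower on every continuous array by a smaller step, 4084 ± 157 against 5585 ± 357 (log2 -0.45, SE 0.11, adjusted p = 0.186). The pyruvate decarboxylase gene PDC1 measured log2 -0.12 and BAT2, a branched-chain aminotransferase, log2 -0.17. Genes that make esters from the alcohols were divided, and none of them passed. ATF1, the main alcohol acetyltransferase that makes acetate esters, read 109.2, 136 and 176.8 in 2 h and 478.9, 397.8 and 280.1 in continuous glucosamine. It was 2.73-fold higher without overlap and missed the threshold (log2 1.45, SE 0.25, adjusted p = 0.124). Its relative ATF2 read 334.7, 347.6 and 409 against 565.5, 728.7 and 426.1 (log2 0.63, adjusted p = 0.269). EHT1, which makes ethyl esters of fatty acids, was on the other side with overlap (log2 -0.59, SE 0.25), and EEB1, a relative of EHT1, and IAH1, an esterase that splits acetate esters, measured log2 0.06 and -0.08.

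THI3, a decarboxylase-like regulator of thiamine genes, read 170.9, 197.6 and 125.2 against 263.9, 261.8 and 325 (log2 0.80, adjusted p = 0.271). In the list of 21 tested Ehrlich genes, 2 were called, 4 were higher without overlap (19.0%) and 5 lower (23.8%), beside 12.4% and 7.29% of all genes. The median was -0.08 and became 0.03 without 2 h array 1, so the list as a whole had no direction. The 12 genes of aromatic amino acid synthesis gave a median of 0.05, from -0.25 to 0.15, and none was called by limma, with 1 at an unadjusted p under 0.05. That gene was TRP5, tryptophan synthase (log2 -0.24, SE 0.09, adjusted p = 0.288).

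**Figure D2:**
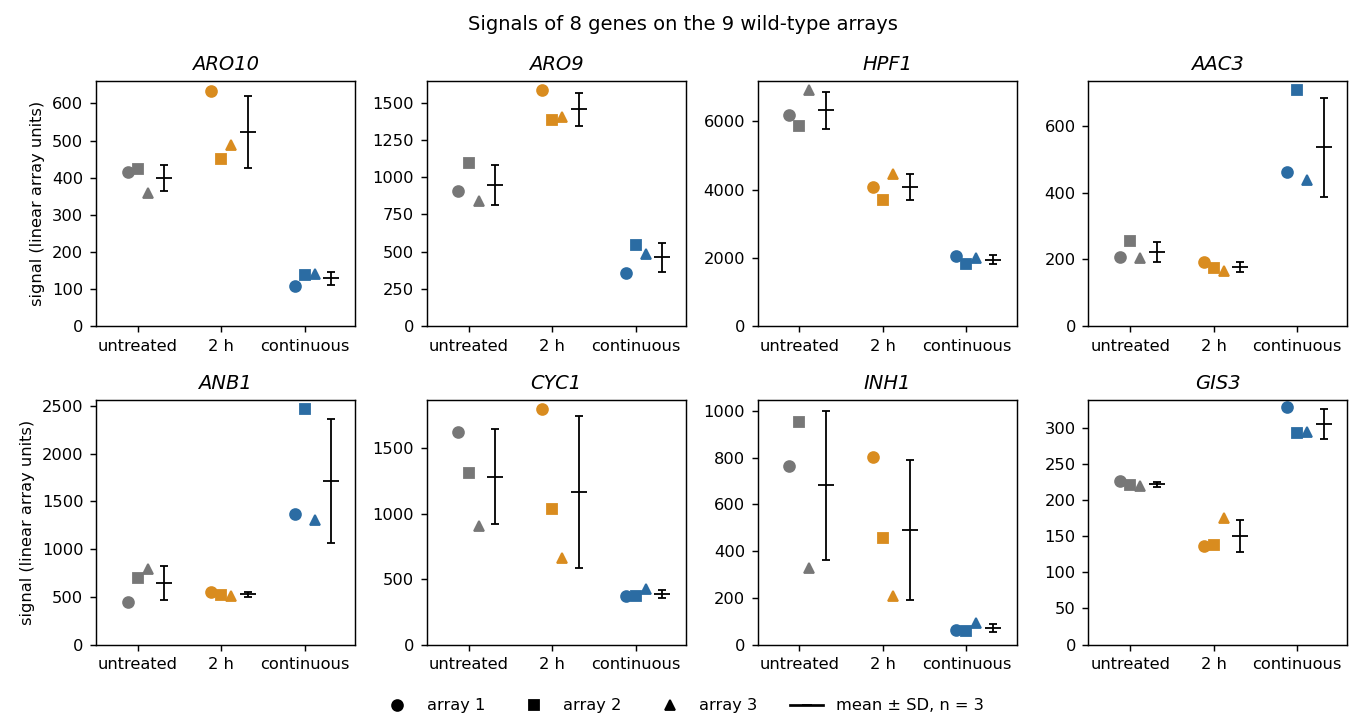
Signal (y axis, linear array units) of 8 genes on each wild-type array, by group on the x axis, with the mean and SD over 3 arrays beside the points. ARO10, ARO9 and HPF1 are lowest and AAC3, ANB1 and GIS3 highest on the continuous arrays, and the 2 h arrays of CYC1 and INH1 are spread widely.

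HPF1, the gene of a large and heavily glycosylated wall mannoprotein, was the called gene of the cell wall. It read 4070.5, 3688.5 and 4449 in 2 h and 2041.8, 1809.4 and 2001.1 in continuous glucosamine. The untreated arrays read 6200.9, 5861.1 and 6930.5, so the signals stepped down from untreated to 2 h to continuous with no overlap anywhere. Continuous cells were 2.08-fold below 2 h cells (log2 -1.06, SE 0.11, limma adjusted p = 0.00747). That call was lost without 2 h array 1 (adjusted p = 0.0632) and without a variance trend (0.0676). It was also lost when the 6 glucosamine arrays were fitted with array numbers as a block (limma adjusted p = 0.542).

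Some other abundant wall proteins were lower too but did not pass, while TIR1, described below, was higher and did not pass either. CWP1, a mannoprotein linked to the wall through a lipid anchor remnant, read 8729.3, 5660 and 7058.5 in 2 h and 3237, 3495.4 and 4577.1 in continuous glucosamine. This was 1.89-fold lower without overlap (log2 -0.92, SE 0.18, adjusted p = 0.140). TOS6, a wall protein gene, read 4033.6, 5944.4 and 3658.2 against 1952.6, 2231.1 and 2471.3 (log2 -1.01, SE 0.21, adjusted p = 0.173). For CWP1 the untreated arrays, at 4841.4 to 5919.8, lay between the highest 2 h arrays and the continuous arrays. For TOS6 they lay with the 2 h arrays, at 3957.8 to 6024.7. In the list of 31 mannoproteins and flocculins, 20 were negative and 11 positive, with a median of -0.14. Without overlap, 9 were lower (29.0%, against 7.29% of all genes) and 2 higher (6.45%, against 12.4%). An unadjusted limma p under 0.05 was found for 12, against 14.0% of all genes.

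Output genes and signalling parts of the cell integrity pathway, taken as 1 list, did not share a direction. Of 39 tested, 20 were positive and 19 negative, the median was 0.01, 3 were higher without overlap (7.69%, against 12.4% of all genes) and 7 lower (17.9%, against 7.29%). PRM5, a Slt2-dependent membrane protein gene, read 337.5, 401 and 257.8 in 2 h and 670.8, 428.7 and 966.7 in continuous glucosamine. It was 2.00-fold higher (log2 1.00, SE 0.28, adjusted p = 0.212), with untreated arrays at 160.4 to 180.6, below both groups. CRH1, which joins chitin to glucan, went the other way, from 3773 ± 155 in 2 h to 2837 ± 204 in continuous glucosamine (log2 -0.41, SE 0.11, adjusted p = 0.206). Untreated cells read 2286.3 to 2771.6, so the continuous arrays, at 2611.7 to 3007, overlapped untreated cells and lay below 2 h cells.

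The hexosamine and chitin genes differed little as a list. Of 16 tested, none was called by limma and the median was -0.09. An unadjusted limma p under 0.05 was found for 2, against 14.0% of all genes. GFA1, which makes glucosamine 6-phosphate from fructose 6-phosphate, read 1463.5, 1324.5 and 1139.7 in 2 h and 1342.2, 1076.5 and 1061.3 in continuous glucosamine (log2 -0.18, SE 0.14, adjusted p = 0.599). CHS3, the synthase of most wall chitin, measured log2 -0.15 (SE 0.13) and CHS1, a repair synthase, 0.38 (SE 0.30), both with overlapping arrays. The 2 genes without overlap were BNI4, a scaffold that ties chitin synthase to the septin ring (log2 -0.41, SE 0.16, adjusted p = 0.303), and CHS2, the septum synthase (log2 -0.33, SE 0.14, adjusted p = 0.335). CTS1, the chitinase of cell separation, measured log2 -0.03 (SE 0.11). RCR1, which affects chitin deposition, split by array, at 557.7, 103.1 and 492.4 in continuous glucosamine.

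Glucan and glycosylation genes leaned down in small steps. Of 30 glucan genes, 8 were lower without overlap (26.7%, against 7.29% of all genes) and 1 higher (3.33%, against 12.4%), with a median of -0.16. GAS3, a glucanosyltransferase relative, measured log2 -0.47 (SE 0.14, adjusted p = 0.227), and EXG1, an exoglucanase, log2 -0.32 (SE 0.10, adjusted p = 0.255). Of 46 glycosylation genes, 38 were negative, 11 were lower without overlap (23.9%) and 2 higher (4.35%). Their mean was 0.15 to 0.21 log2 units below the 2 h mean on the continuous arrays, under each of the 2 h arrays, which ran from -0.10 to 0.10. Values for the leading members were log2 -0.35 for PMT2, a protein O-mannosyltransferase, and -0.50 for DPM1, the dolichol phosphate mannose synthase. ALG7, the target of tunicamycin that starts N-glycan assembly with N-acetylglucosamine phosphate, measured log2 -0.41 (SE 0.14, adjusted p = 0.272). No glucan or glycosylation gene was called by limma, and 14.0% of all tested genes had an unadjusted p under 0.05, against 10 of 46 glycosylation and 9 of 30 glucan genes.

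AAC3, the ADP/ATP carrier of the inner mitochondrial membrane made in cells without oxygen, was the called gene that was higher. It read 192.1, 174.6 and 165.1 in 2 h and 463.5, 709.3 and 437.6 in continuous glucosamine, 2.96-fold higher (log2 1.57, SE 0.21, limma adjusted p = 0.0331). Untreated cells read 204.9 to 256.7, with the 2 h arrays below and the continuous arrays above them. The call was the weakest of the 4. It passed in 7 of 20 alternatives, with an adjusted p of 0.0637 under median scaling and 0.0858 under quantile normalisation. The adjusted p was 0.0601 to 0.134 when any single untreated or 2 h array, or continuous array 1, was left out.

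The oxygen-induced partner of AAC3 is PET9, the major carrier. PET9 read 4823, 5683.2 and 4110.3 in 2 h and 2979.8, 3103.7 and 3503.5 in continuous glucosamine, lower without overlap (log2 -0.60, SE 0.13, adjusted p = 0.173). The third carrier gene, AAC1, overlapped (log2 -0.45, SE 0.23, adjusted p = 0.415). A second pair is formed by ANB1 and HYP2, which encode the hypoxic and the aerobic form of translation factor eIF5A. ANB1 read 554, 514.6 and 505.7 in 2 h and 1372.9, 2466.7 and 1307.9 in continuous glucosamine. It was 3.13-fold higher without overlap and missed the threshold (log2 1.65, SE 0.27, adjusted p = 0.0916). HYP2 overlapped (log2 -0.20, SE 0.16, adjusted p = 0.600).

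The cytochrome c oxidase pair did not follow that order. COX5B, the hypoxic form of subunit V, read 514.6, 286.2 and 313.8 in 2 h and 164.3, 145.3 and 211.1 in continuous glucosamine, lower without overlap (log2 -1.07, SE 0.26, adjusted p = 0.190). COX5A, the aerobic form, overlapped (log2 -0.47, SE 0.32, adjusted p = 0.534). CYC1, the aerobic cytochrome c gene and the neighbour of ANB1 in the RefSeq gene table, read 1800.4, 1033.9 and 664.3 in 2 h and 367.1, 372.6 and 420.7 in continuous glucosamine. All continuous arrays were below all 2 h arrays, which spread almost 3-fold among themselves (log2 -1.48, SE 0.33, adjusted p = 0.173). Its hypoxic partner CYC7 read 20, 17.2 and 98.9 in continuous glucosamine, around 2 h arrays at 35.5 to 50.6.

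Other members of the hypoxic list were as divided. HEM13, a heme synthesis enzyme that uses oxygen, read 547.2, 460.5 and 411.8 in 2 h and 1676.4, 1390 and 671.3 in continuous glucosamine (log2 1.30, SE 0.30, adjusted p = 0.185). Without continuous array 3 it passed (log2 1.70, adjusted p = 0.0367). UPC2, an activator of sterol and anaerobic genes, read 33.5 to 55.5 in 2 h and 78.1 to 95.5 in continuous glucosamine (log2 1.00, adjusted p = 0.190). TIR1, an anaerobic wall mannoprotein, read 2797 ± 204 in 2 h and 4677 ± 735 in continuous glucosamine (log2 0.73, SE 0.14, adjusted p = 0.133). Its relative TIR3 was lower, from 1639 ± 300 to 1057 ± 66.7 (log2 -0.62, SE 0.14, adjusted p = 0.185).

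ROX1, the repressor of hypoxic genes, overlapped (log2 -0.47, SE 0.36, adjusted p = 0.582), and so did OLE1, the oxygen-dependent fatty acid desaturase (log2 0.13). HAP1, the heme-responsive activator, was higher without overlap, at 681.7 to 724.1 in continuous and 466.8 to 541.2 in 2 h glucosamine (log2 0.45, SE 0.13, adjusted p = 0.222). Of 25 tested hypoxic genes, 1 was called, 18 were positive, 7 were higher without overlap (28.0%) and 3 lower, with a median of 0.20. Over all tested genes, 59.2% were positive, 12.4% higher and 7.29% lower without overlap, so the share of hypoxic genes was above that of all genes in each direction. Of 13 oxygen-induced partners, 11 were negative, 3 were lower (23.1%) and 1 higher, with a median of -0.45.

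**Figure D3:**
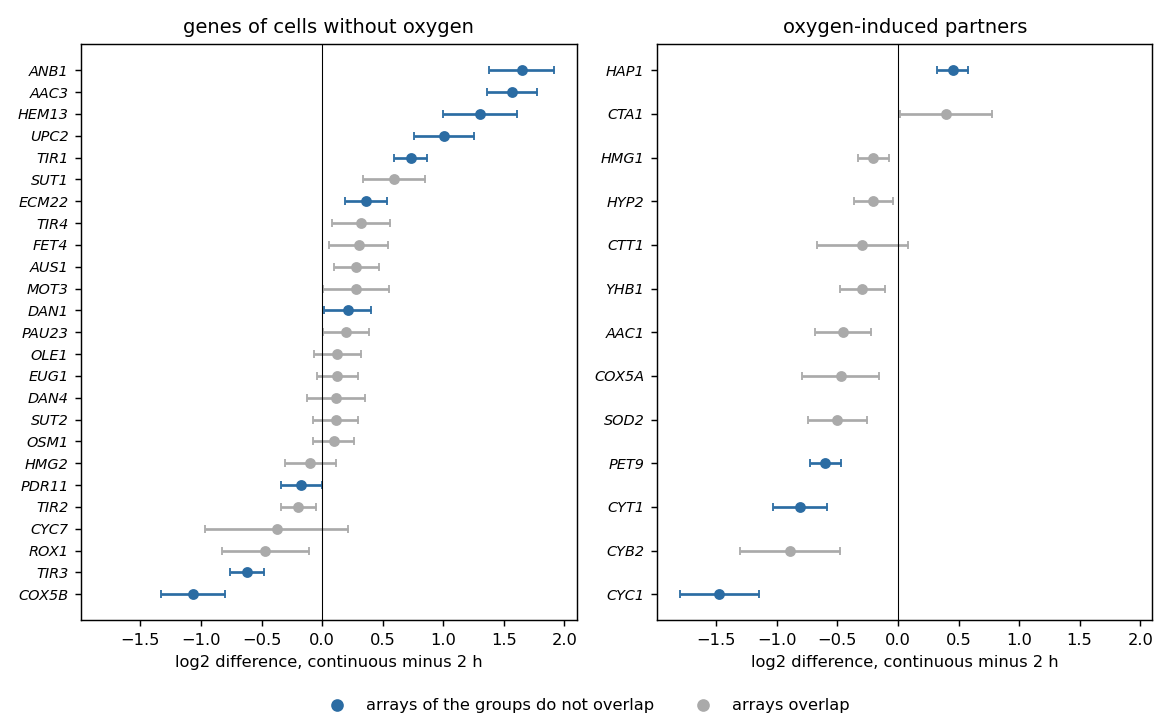
Log2 difference (x axis, continuous minus 2 h) with its limma standard error for the 25 tested hypoxic genes (left) and 13 oxygen-induced partners (right). ANB1, AAC3 and HEM13 lie farthest right and COX5B farthest left among the hypoxic genes, and CYC1 and CYB2 farthest left among the partners.

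The respiratory list held the largest share of separated genes of the lists with at least 10 tested members. Of 42 tested genes for complexes II to IV, cytochrome c and ATP synthase, 41 were negative, 20 were lower without overlap (47.6%, against 7.29% of all genes) and none was higher. None was called by limma, and the median was -0.60. An unadjusted limma p under 0.05 was found for 27, against 14.0% of all genes. INH1, whose protein inhibits the ATP synthase of mitochondria, read 805, 456.5 and 208.4 in 2 h and 62.4, 57.1 and 92 in continuous glucosamine, 6.16-fold lower (log2 -2.62, SE 0.50, adjusted p = 0.133). QCR6, a subunit of the cytochrome bc1 complex, read 745.1, 684.6 and 549.9 in 2 h and 354.4, 403.2 and 390.9 in continuous glucosamine (log2 -0.78, SE 0.16, adjusted p = 0.152). Both left a gap between the groups, a wide one in INH1 although its 2 h arrays differed almost 4-fold.

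The arrays of a group did not sit together in this list. Relative to the 2 h mean, the mean of the 42 genes was 0.47, 0.07 and -0.54 on the 2 h arrays and -0.74, -0.93 and -0.39 on the continuous arrays, so 2 h array 3 lay below continuous array 3. Untreated arrays had 0.35, 0.41 and -0.26. The median difference was -0.39 without 2 h array 1, -0.88 without 2 h array 3 and -0.74 without continuous array 3.

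The TCA cycle followed the same arrays. Of 19 genes, 18 were negative and 8 lower without overlap (42.1%, against 7.29% of all genes). Their median of -0.55 was -0.34 without continuous array 2. ACO1, aconitase, read 4323, 2844.3 and 2039 in 2 h and 1198.9, 1045.1 and 1889.6 in continuous glucosamine (log2 -1.13, SE 0.30, adjusted p = 0.197). SDH3 and SDH4, membrane subunits of succinate dehydrogenase, measured log2 -0.89 (SE 0.22) and -0.98 (SE 0.26). POR1, the porin of the outer mitochondrial membrane, was tight in each group, 5450 ± 466 against 7831 ± 412 (log2 -0.53, SE 0.10, adjusted p = 0.133). The 68 mitochondrial ribosomal protein genes were split, 33 positive and 35 negative, with a median of -0.02. The retrograde pathway carries mitochondrial state to the nucleus. Its usual reporter CIT2, the peroxisomal citrate synthase, named after its values were seen, read 266.5, 470.8 and 608.8 in 2 h and 831.3, 403 and 889.4 in continuous glucosamine, with overlap (log2 0.65, adjusted p = 0.430). Of 10 genes of that pathway, 6 were positive and 4 negative. Without overlap, 2 were higher (20.0%, against 12.4% of all genes) and 1 lower (10.0%, against 7.29%). The lower gene was ACO1, and IDH2 was lower with overlap (log2 -1.01, SE 0.37, limma adjusted p = 0.292).

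**Figure D4:**
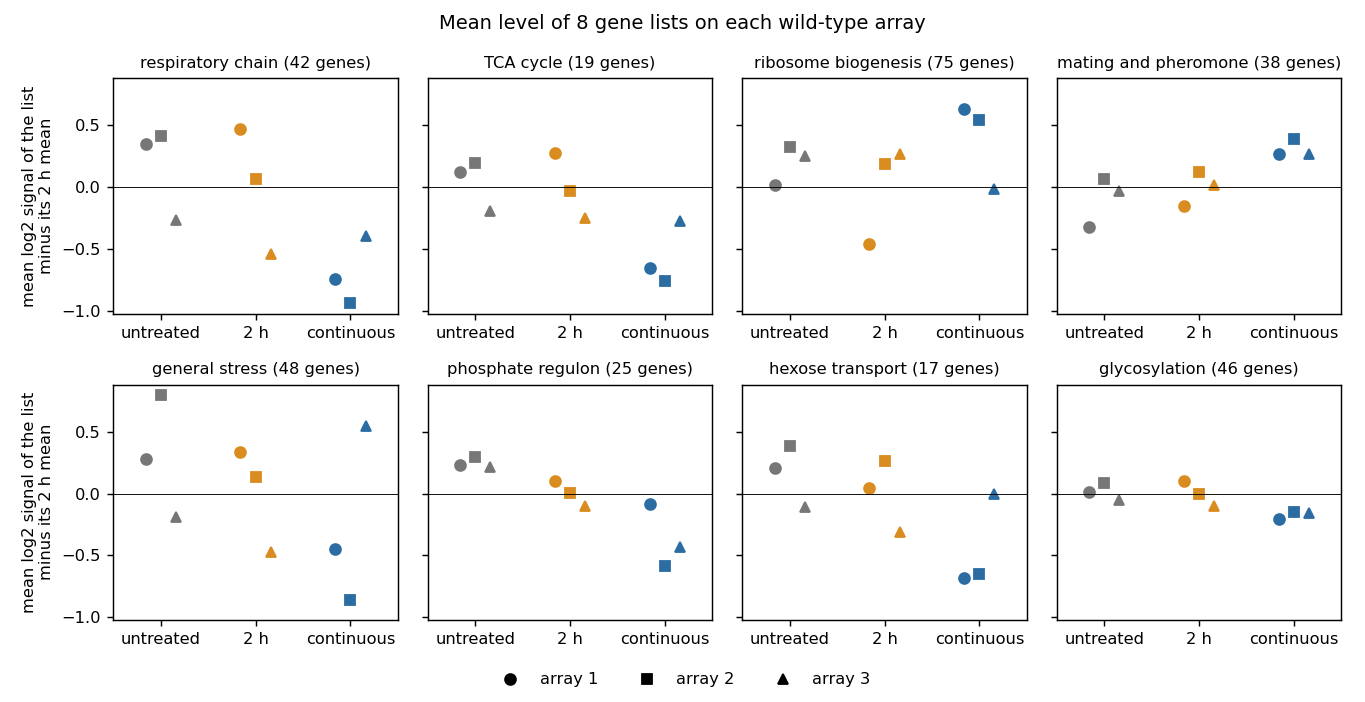
Mean log2 signal of 8 gene lists on each wild-type array minus the mean of the 2 h arrays (y axis), by group on the x axis. The respiratory means of the 2 h arrays run from 0.47 to -0.54 and overlap those of the continuous arrays, while the mating and the glycosylation lists separate the groups.

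In several carbon and stress genes 1 or more arrays crossed the groups. HXT6 and HXT7, near-identical high-affinity glucose transporters that the probe sets cannot separate, read 6305, 5528 and 1884 (HXT6) in 2 h and 1242, 1059 and 2714 in continuous glucosamine. The groups overlapped because the array numbered 3 was lowest in 2 h and highest in continuous glucosamine (log2 -1.40, SE 0.50, adjusted p = 0.284). HXK1, the hexokinase that glucose represses, followed the same order, with 433.3 on 2 h array 3 and 866.8 on continuous array 3 (log2 -1.53, SE 0.73, adjusted p = 0.388). JEN1, a lactate transporter that glucose represses, was near background, at 10.1 to 27.4 in 2 h and under 7.7 on every continuous array. Of 17 hexose transport genes 13 were negative, where 59.2% of all genes were positive. Their median of -0.46 was -0.27 without continuous array 1. Of 22 glycolysis and fermentation genes 19 were negative, with 5 lower without overlap (22.7%, against 7.29% of all genes) and a median of -0.18. None of the 22 had an unadjusted limma p under 0.05, against 14.0% of all genes. ALD6, the cytosolic acetaldehyde dehydrogenase, was tight in each group and lower without overlap, 2230 ± 140 against 3394 ± 376 (SD, n = 3; log2 -0.60, SE 0.17, limma adjusted p = 0.212).

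HSP12, a small membrane stress protein, had the largest negative difference of the named genes above background. It read 2446, 1543.5 and 699.9 in 2 h and 83.2, 222.8 and 337.3 in continuous glucosamine, 7.50-fold lower without overlap (log2 -2.91, SE 0.66, adjusted p = 0.180). The general stress list leaned the same way, but its arrays crossed the groups. Of its 48 genes 31 were negative, where 59.2% of all genes were positive, and the median was -0.27. Without overlap, 3 were lower (6.25%, against 7.29% of all genes) and none was higher (against 12.4%). The mean of the list was -0.44, -0.86 and 0.55 on the continuous arrays and 0.34, 0.14 and -0.47 on the 2 h arrays. The median was -0.02 without continuous array 2, -0.17 without continuous array 1 and -0.11 without 2 h array 1, and -0.43 without 2 h array 3 and -0.49 without continuous array 3.

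Ribosome biogenesis genes leaned up by a small and uneven step. Of 75 tested nucleolar and assembly factors, 73 were positive, against 59.2% of all genes, with a median of 0.39. Yet 5 were higher without overlap (6.67%), a share under the 12.4% of all genes. None was called by limma, and 9 had an unadjusted p under 0.05, against 14.0% of all genes. UTP22, a component of the small subunit processome, read 548.8, 818.5 and 895.8 in 2 h and 1123, 1189.3 and 1024.8 in continuous glucosamine (log2 0.59, SE 0.19, adjusted p = 0.250). The list mean was -0.46, 0.19 and 0.27 on the 2 h arrays and 0.64, 0.54 and -0.01 on the continuous arrays, so 2 h array 1 was lowest and continuous array 3 lay below 2 h arrays 2 and 3. The median was 0.19 without 2 h array 1 and 0.61 without continuous array 3. The 77 ribosomal protein genes had a median of -0.03.

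The mating genes had a higher mean on every continuous array. Of 38 tested genes of mating type a and the pheromone response, 30 were positive and 12 higher without overlap (31.6%, against 12.4% of all genes), while 1 was lower. The list mean was 0.27, 0.39 and 0.27 on the continuous arrays and -0.15, 0.13 and 0.02 on the 2 h arrays, without overlap. FUS3, the kinase of the pheromone response, read 155.5, 262.8 and 159.8 in 2 h and 375.6, 378.7 and 311.1 in continuous glucosamine (log2 0.92, SE 0.24, adjusted p = 0.197). SST2, which shuts the pheromone signal off, read 307, 422.3 and 284.1 against 599.2, 621.4 and 522.3 (log2 0.80, SE 0.21, adjusted p = 0.197).

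AXL1, a protease that matures the a-factor pheromone, read 88.4 to 104.5 in 2 h and 150.1 to 182 in continuous glucosamine (log2 0.80, SE 0.18, adjusted p = 0.174). STE2, the receptor for alpha-factor, measured log2 0.46 (SE 0.18, adjusted p = 0.300). No member of the list was called by limma, and 8 of 38 had an unadjusted p under 0.05, against 14.0% of all genes. The median of 0.33 was 0.18 without 2 h array 1 and 0.22 without continuous array 2 or with median scaling.

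IME1, the master regulator that starts meiosis and is repressed in haploids by textbook accounts, read 112.5, 104.8 and 120.9 in 2 h and 269.3, 210.3 and 310.1 in continuous glucosamine. It was 2.31-fold higher without overlap (log2 1.21, SE 0.21, adjusted p = 0.125), and untreated cells read 74.7 to 109.1. IME2, the kinase that IME1 activates, read 23.5 to 26 in 2 h, at the control percentile, and 33.2 to 60.1 in continuous glucosamine (log2 0.87, SE 0.32, adjusted p = 0.292). RIM4, a member of the same list, went the other way near background. It read 22.1, 17.3 and 29.7 in 2 h and 7.9, 4.3 and 10.7 in continuous glucosamine (log2 -1.37, limma adjusted p = 0.180). Of 14 meiotic entry genes, 9 were positive, near the 59.2% of all genes. Without overlap, 3 were higher (21.4%, against 12.4% of all genes) and 2 lower (14.3%, against 7.29%). The list median of 0.09 was near the 0.07 of all genes. The 19 G1 genes had no member without overlap.

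**Figure D5:**
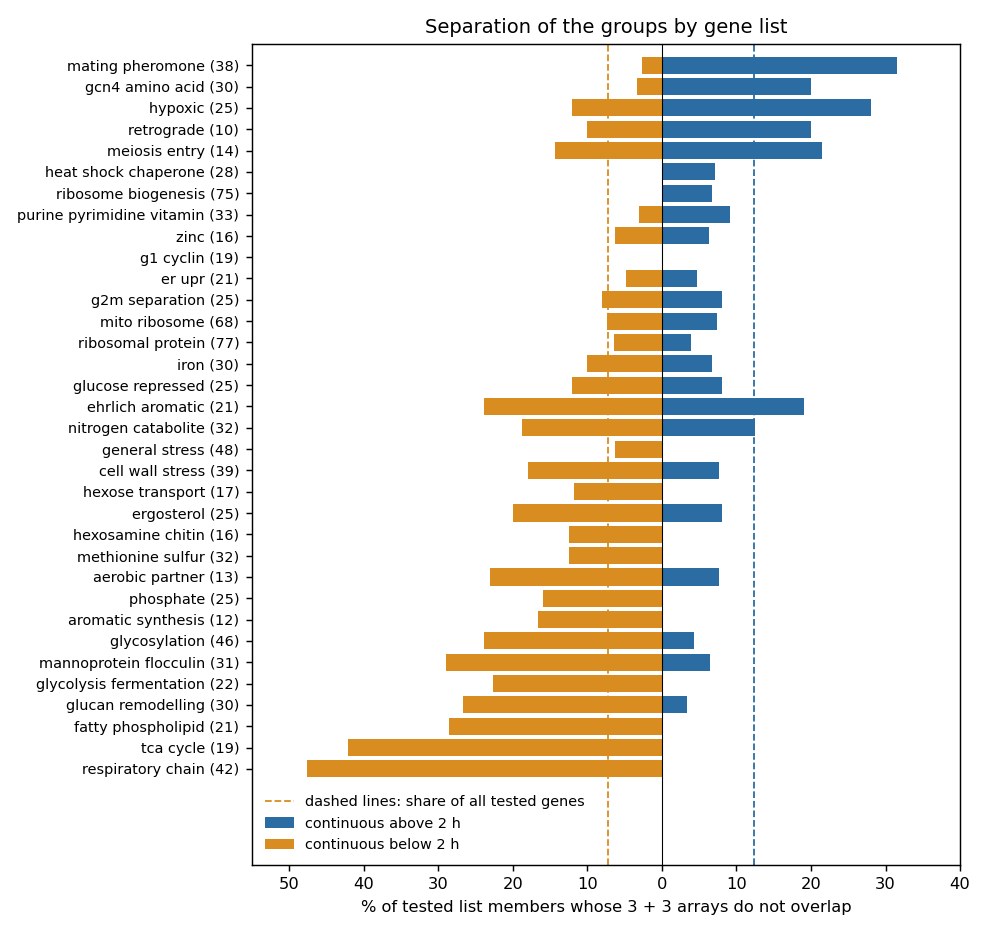
Share of the tested members of each gene list (y axis, number of tested members in parentheses) whose 3 continuous arrays lay all above (right) or all below (left) the 3 arrays of 2 h glucosamine, in percent. Dashed lines mark the shares over all tested genes, 12.4% and 7.29%, and the respiratory chain at 47.6% and the TCA cycle at 42.1% extend farthest left.

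Among genes of nitrogen and sulfur supply, the leading members were lower and did not pass. PTR2, the di- and tripeptide transporter, read 4345.3, 2651.3 and 2792.1 in 2 h and 1819.1, 1541 and 1566.2 in continuous glucosamine, 1.94-fold lower (log2 -0.96, SE 0.19, adjusted p = 0.152). CAR2, an enzyme of arginine breakdown, read 3451.4, 3923.4 and 3267.9 against 1598, 1676.9 and 2414.2 (log2 -0.92, SE 0.20, adjusted p = 0.173). MUP1, the high-affinity methionine permease, measured 2130 ± 459 in 2 h and 950.5 ± 340 in continuous glucosamine (log2 -1.21, SE 0.27, adjusted p = 0.173). None of these passed, although all continuous arrays lay below all 2 h arrays in each. In the nitrogen list 6 of 32 were lower without overlap (18.8%, against 7.29% of all genes) and 4 higher (12.5%, against 12.4%). GDH2, which releases ammonium from glutamate, was on the higher side, at 113.6 to 128.7 in 2 h and 166.4 to 214.9 in continuous glucosamine (log2 0.68, SE 0.18, adjusted p = 0.204).

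Of 32 methionine and sulfur genes 23 were negative and 4 were lower without overlap (12.5%, against 7.29% of all genes), with a median of -0.13. MET17, a gene that BY4741 should lack, was 3.92-fold lower (log2 -1.97, SE 0.46, adjusted p = 0.186). Of 30 amino acid synthesis genes under Gcn4, 6 were higher without overlap (20.0%, against 12.4% of all genes) and 1 was lower. Their median of 0.08 was close to the 0.07 of all genes and ran from -0.04 to 0.20 over the alternatives. ARG1, argininosuccinate synthase, read 129.1, 276.6 and 141.5 in 2 h and 388.8, 542.3 and 309 in continuous glucosamine (log2 1.23, SE 0.41, adjusted p = 0.269).

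Among phosphate genes 21 of 25 were negative, where 59.2% of all genes were positive. Without overlap, 4 were lower (16.0%, against 7.29% of all genes) and none was higher (against 12.4%). PHO84, the high-affinity phosphate transporter, read 10103, 9704 and 11849 in 2 h and 9085, 6621 and 6193 in continuous glucosamine (log2 -0.55, SE 0.16, adjusted p = 0.222). SPL2, a regulator of phosphate uptake next to ARO9 in the gene table, read 780.1, 652.4 and 658.8 in 2 h but 680.1, 176 and 145.5 in continuous glucosamine. The call for SPL2 turned on 1 array: it missed the threshold with all arrays (log2 -1.42, adjusted p = 0.262) and passed without continuous array 1 (log2 -2.12, adjusted p = 0.00556). The list median of -0.44 was -0.16 without continuous array 2. FET3, the multicopper oxidase of iron uptake, measured 4991 ± 163 in 2 h and 2778 ± 933 in continuous glucosamine (log2 -0.91, SE 0.22, adjusted p = 0.190).

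In lipid synthesis, 6 of 21 fatty acid and phospholipid genes were lower without overlap (28.6%, against 7.29% of all genes) and none higher (against 12.4%). CHO1, phosphatidylserine synthase, read 1803.6, 1557.9 and 1418.2 in 2 h and 844.6, 967.8 and 1085 in continuous glucosamine (log2 -0.72, SE 0.14, adjusted p = 0.140). ITR1, the inositol transporter, measured log2 -0.47 (SE 0.13) and OPI1, the repressor of inositol-responsive genes, -0.49 (SE 0.17). Of 25 ergosterol genes 5 were lower (20.0%) and 2 higher without overlap, with a median of -0.03. ERG5, the sterol desaturase, measured log2 -0.53 (SE 0.17, adjusted p = 0.254) and CYB5, the cytochrome that supplies electrons to such enzymes, 0.54 (SE 0.19, adjusted p = 0.272).

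Of the remaining genes with the smallest p, several were lower in 2 h than in untreated cells. GIS3, a gene of unknown function, read 136.5, 137.1 and 175.3 in 2 h, 329, 292.3 and 293.7 in continuous glucosamine and 218.8 to 225.9 in untreated cells (log2 1.04, SE 0.16, adjusted p = 0.0916). KCC4, a bud neck kinase of the septin checkpoint, read 155.2, 222.8 and 209.5 against 358.9, 405.6 and 361.5, with untreated cells at 300.5 to 351.4 (log2 0.95, SE 0.17, adjusted p = 0.133). For GIS3 and KCC4, all 2 h arrays lay below and all continuous arrays above the untreated arrays. SHU2, a recombination protein gene, and HER2, a mitochondrial amidotransferase subunit, were also lowest in 2 h, with log2 differences of 1.03 (SE 0.21) and 1.14 (SE 0.23) and an adjusted p of 0.152 each.

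SSK22, a kinase of the osmotic stress pathway, overlapped in 2 h (92.4 to 97.6) and untreated cells (86.1 to 100.1) and was higher in continuous glucosamine, at 161.7 to 194.3 (log2 0.90, SE 0.17, adjusted p = 0.133). IRC10 read 4.7, 4.8 and 7.4 in 2 h, below the floor, and 57.6, 44.8 and 64.5 in continuous glucosamine, at least 2.16-fold higher when the control percentile stands in for the 2 h arrays. It missed the threshold (adjusted p = 0.127) and passed without untreated array 1 (0.00821) or when the 6 glucosamine arrays were fitted alone (0.0352). ATG33, a gene needed for the removal of mitochondria by autophagy, read 591.4, 413.1 and 390.2 in 2 h and 189.5, 221.2 and 288.1 in continuous glucosamine (log2 -0.99, SE 0.21, adjusted p = 0.169). YOL014W read 138.2 to 279.2 in 2 h but 1115.8, 261.9 and 1184.5 in continuous glucosamine (log2 1.82, SE 0.54, adjusted p = 0.229), and passed without continuous array 2 (adjusted p = 0.0491).

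The untreated arrays place each difference. Among the 406 genes that were lower without overlap, the untreated mean lay nearer to the 2 h mean for 323 (79.6%) and nearer to the continuous mean for 83 (20.4%). Among the 691 that were higher, it lay nearer to 2 h for 421 (60.9%) and nearer to continuous for 270 (39.1%). Of the genes with at least a 2-fold difference, 24 of 28 lower and 22 of 32 higher genes had the untreated mean nearer to 2 h. These shares are descriptions, since genes are not independent of each other and untreated arrays also entered the estimate of the spread. Same-numbered untreated and 2 h arrays also shared deviations from their group means (correlations of 0.36, 0.57 and 0.52), which continuous arrays shared with neither. The part of this in the shares was not tested.

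The continuous arrays themselves differed in a set of stress and carbon genes, which was chosen after the values were seen. Of 5203 genes with a mean above the control percentile in every group, 62 ranged at least 4-fold among the continuous arrays, 100 among the 2 h arrays and 85 among the untreated arrays. Continuous array 3 was highest in 56 of the 62 and continuous array 2 lowest in 53. HSP30, a stress protein of the plasma membrane, read 2414.9, 82.3 and 5475.1 in continuous glucosamine and 276.2, 1230.1 and 100.4 in 2 h. HSP82, the inducible Hsp90 chaperone, read 327.1, 790.5 and 3310. No label gives a batch for these arrays, and a batch of the continuous arrays as a whole cannot be told apart from the treatment.

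Family probe sets, told by a suffix of their identifiers, may bind related transcripts. They added no named gene to the calls, but the called probe set that is not named was one of them. With family probe sets left out, 4 probe sets were called. Of 1549 such family probe sets tested, 223 were higher without overlap (14.4%) and 73 lower (4.71%), beside 11.5% and 7.14% of all tested probe sets. Of 7 probe sets for the ribosomal RNA gene RDN37-1, singled out after its values were seen, 1 was higher without overlap, at 9.7, 7.4 and 14.8 in 2 h and 45.5, 79.9 and 36.8 in continuous glucosamine (log2 2.31, SE 0.36, adjusted p = 0.0916). Its 2 h arrays were under the control percentile, which gives a bound of at least 2.01-fold. The other probe sets of that gene overlapped, with log2 differences from -0.08 to 2.18.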

How the data were processed

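The authors deposited 1 intensity (signal) per probe set and array, and per the labels' protocols this came from GeneChip Analysis Suite, including normalisation. The version is not given in the sources used here. Signals of 9 wild-type arrays were floored at 7.7, the 10th percentile, and log2 transformed. Of 9275 probe sets that are not controls, 8616 were tested and 659 were not. Limma 3.58.1 (R 4.3.3) with a variance trend was fitted to 3 groups of 3, two-sided, with Benjamini-Hochberg adjustment at 0.05. The number of arrays limits precision: on simulated data at this size, 34.5% of 200 probe sets changed 2-fold and 78.5% of those changed 4-fold among 8616 were called.

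Through the platform table and RefSeq assembly R64, 6504 probe sets had 1 gene symbol, 328 had several and 2443 had none. A gene was read from 1 probe set, with tested ones first, then those not of a family, then the brightest. A gene with no such probe set was read from a family or an untested one, as HXT6, HXT7 and MFA1 were from family probe sets and URA3 from an untested one. Of 1074 genes in 38 lists, 982 were tested. Members and lists were chosen with earlier results of these data known, and lists are described without a test.

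Genes named were those called, the 12 with the smallest p in each direction without overlap and above the control percentile, 3 leading members of each list, any member of the Ehrlich, aromatic, hypoxic, partner and hexosamine lists, the strain markers, and the 5 largest differences each way. Deviations of same-numbered 2 h and continuous arrays correlated at -0.06, -0.04 and -0.20, so array numbers were not used as pairs, although those of untreated and 2 h arrays did at 0.36, 0.57 and 0.52. Alternatives varied the block, scaling, floor, filter, variance model and arrays. No sequence or coordinates are printed, since the tables used here hold none of a named build.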

Additional observations from a re-analysis of the deposited data

How the results depend on the processing

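The 5 calls were recomputed under 20 alternatives. The 6 glucosamine arrays with replicate block gave 0 calls (limma, smallest adjusted p = 0.436, 780 probe sets at an unadjusted p under 0.05), while the 9 arrays with replicate block gave 5, all kept. Leaving out 1 array gave 2 (without 2 h array 1, with ARO10 the one named gene) to 9 calls (without continuous array 2, which added NCW2, TOS3, YHR212W-A and YOL014W). The other alternatives gave 4 to 6. ARO10 passed in 19, ARO9 in 18, HPF1 in 17 and AAC3 in 7 of 20, and each of the 4 kept its direction in all 20. Without a filter AAC3 had an adjusted p of 0.0923. The median log2 difference over all probe sets, 0.05, was -0.06 with median scaling and 0.01 with quantile normalisation. Some differences near 0 changed sign: HIS3 (0.10) gave -0.015 with median scaling and -0.14 to 0.23 with 1 array left out, CTS1 (-0.03) gave 0.051 with quantile normalisation and -0.10 to 0.020 with 1 array left out, and BAT2 (-0.17) gave -0.35 to 0.13 with 1 array left out. Of 38 list medians, 15 changed sign under at least 1 alternative. With 3 arrays a group, 2-fold differences were often missed in simulated data, and signals under 25.5 cannot be told from the controls.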

Other observations

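The arrays of the fks1 mutant, 1 untreated and 1 after glucosamine, entered no comparison and have no replicate. On them ARO10 read 585.9 and 603.3, ARO9 836.4 and 1026.9, HPF1 4760.7 and 3617.4, AAC3 183.5 and 124, and ANB1 315.1 and 293.1, in that order. MET17 read 7.6 and 7.7 on the fks1 arrays, under the control percentile, and 108.5 to 1248 on the 9 wild-type arrays.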
